A study of Mus musculus with 6 samples.

Results

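The 43 genes described here are the antioxidant genes governed by the transcription factor NRF2, with those of the glutathione and thioredoxin systems and the pentose phosphate pathway. They were picked by symbol from a table of 26329 genes, and all 43 symbols were found in it. Glutathione peroxidases were left out. The table holds RNA sequencing of 6 libraries of mouse ovary kept in culture. In the 3 Control libraries the ovaries had been given the solvent DMSO, and in the 3 ISRIB libraries ISRIB dissolved in DMSO. ISRIB is a small molecule that binds the initiation factor eIF2B and counters the integrated stress response, the program by which stressed cells slow protein synthesis. The title of the study places the comparison within the question of whether blocking that response activates primordial follicles through mTOR. The study's design text speaks of newborn ICR mice, but dose, time in culture and the age of the cultured ovaries were not stated for these libraries. Nor was it stated whether replicates were separate animals or cultures, and the p-values therefore reflect the spread among libraries, which may be technical.

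Levels are given in FPKM as deposited by the authors. The unit divides fragments by gene length and library size, so levels of different genes can be compared per length. The FPKM had been scaled to library sizes of 34896224 to 38471082 reads. Oocyte and granulosa markers were present in all libraries, with the germ cell helicase gene Ddx4 at 15.8 to 16.6 FPKM and the granulosa transcription factor gene Foxl2 at 137 to 163 FPKM. Summed over 10 immediate early genes, Control replicate 2 had 349 FPKM and ISRIB replicate 1 had 494 FPKM, against 163 to 201 FPKM in the other 4 libraries. Summed red cell markers stood at 330 FPKM in ISRIB replicate 1 and at 41.6 to 77.4 FPKM elsewhere. These are whole ovaries, so fewer cells of a type and less RNA per cell cannot be told apart.

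As background, NRF2 (gene Nfe2l2) is held in the cytoplasm and marked for degradation by KEAP1. Oxidants and electrophiles modify cysteines of KEAP1, after which NRF2 enters the nucleus and, with a small MAF protein, binds antioxidant response elements in front of genes for glutathione synthesis, thioredoxin reduction, quinone and heme metabolism, iron storage and NADPH supply. Glutathione and thioredoxin pass electrons from NADPH to enzymes that remove peroxides, and the oxidative branch of the pentose phosphate pathway is a major source of that NADPH. In the ovary, follicles and oocytes depend on these systems against oxidant damage.

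The core of the antioxidant response element, TGACNNNGC, was searched on both strands from 250 bases before to 50 bases after each RefSeq gene start (GRCm38.p6). It was present for 11 of the 37 members with a promoter sequence (29.7%) and for 3781 of all 27025 genes (14%). The windows of all 11 are shown, so that the letters around each core can be compared. Each is written 5′ to 3′ on the strand of its gene, with the core in capitals and 10 bases on each side, and a core on the opposite strand appears as GCNNNGTCA.
Nfe2l2: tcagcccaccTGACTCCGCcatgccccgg
Gclm: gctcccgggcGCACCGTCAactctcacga
Txnrd1: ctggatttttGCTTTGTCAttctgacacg
Srxn1: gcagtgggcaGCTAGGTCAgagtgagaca
Prdx1: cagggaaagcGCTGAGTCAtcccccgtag
Sod1: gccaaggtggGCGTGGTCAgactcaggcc
G6pdx: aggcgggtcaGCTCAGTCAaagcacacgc
Me1: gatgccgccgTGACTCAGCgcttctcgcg
Mgst1: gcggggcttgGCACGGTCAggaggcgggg
Gstm5: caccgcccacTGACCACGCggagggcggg
Pgd: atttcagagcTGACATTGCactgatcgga
Read on its own strand, the core of Prdx1 (chr4:116685456-116685484, plus strand) and that of Me1 (chr9:86695902-86695930, minus strand) were both TGACTCAGC, which also contains the AP-1 motif TGACTCA. Counted from 0 at the gene start, the core lay at −133 to −125 in Prdx1, at −134 to −126 in Gclm (chr3:122245413-122245441, plus strand) and at −92 to −84 in Txnrd1 (chr10:82859104-82859132, plus strand). In Srxn1 (chr2:152105542-152105570, plus strand) it lay past the start, at 28 to 36. The windows of Nfe2l2 (chr2:75704885-75704913), G6pdx (chrX:74428919-74428947) and Pgd (chr4:149166061-149166089) are on the minus strand. Those of Mgst1 (chr6:138140461-138140489), Sod1 (chr16:90220696-90220724) and Gstm5 (chr3:107895802-107895830) are on the plus strand. The GENCODE gene spans used for positions below start elsewhere than the RefSeq starts for some members. The windows of Txnrd1, Srxn1, Mgst1, G6pdx, Me1 and Pgd lie inside those spans. Matches are descriptions of these letters and not of bound sites. The median log2 fold change was 0.06 both for the 11 members with the core and for the 25 tested members without it. Cores outside the searched stretch are missed, so these medians cannot separate genes with an element from genes without one.

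Most members were abundant. Their means ran from 1248 FPKM for Ftl1 to 0.184 FPKM for Mgst2, with 8 members at 100 FPKM or more, 32 between 10 and 100 and 3 below 10. The median over the 42 tested members was 58.5 FPKM, against 10.3 FPKM over the 12922 genes tested. After the ferritin chains Ftl1 and Fth1 (974 FPKM) came Sod1 (486 FPKM), Prdx1 (310 FPKM) and the glutathione S-transferases Gstm2 (282 FPKM) and Gstm1 (253 FPKM). At the other end, the quinone reductase gene Nqo1, a standard NRF2 reporter in many tissues, had 3.07 FPKM, which was above 18.3% of the genes tested. Mgst2 lay below the filter of a mean of 1 FPKM and was not tested.

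In ISRIB, 32 of the 42 tested members had a higher mean log2 value (51.8% of all genes) and 10 a lower one, and no member passed the test. The test was limma on log2(FPKM + 0.5), two-sided, with p adjusted over all 12922 genes tested. At an adjusted p under 0.05 it called 0 of 42 members and 0 genes in all (0% of those tested), and limma's voom on reads recovered from the FPKM also called 0 members (0.859% of all genes). At an unadjusted p under 0.05 there were 11 members (16.4% of all genes), 10 of them higher (8.71% of all genes) and 1 lower (7.73% of all genes). All ISRIB libraries lay above all Control libraries for 11 members (10.8% of all genes) and below for 1 (12% of all genes). The median log2 fold change of the members was 0.07, against 0.01 over all genes tested. Short genes were higher in ISRIB across the whole table, with medians from 0.10 in the shortest of 10 length bins to −0.069 in the longest, and the members are short, with a median length of 1740 bases against 3527. With each library corrected for its trend with length, the members had a median of 0.03 (0.01 over all genes). Then 6 were above and 2 below without overlap (19.8% of all genes). The count of members higher in ISRIB was 26 after that correction, 26 after quantile normalization and 23 after TPM rescaling. The medians over all genes were then 0.01, −0.01 and −0.05. The plot of fold changes by role gives every tested member.

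**Figure D1:**
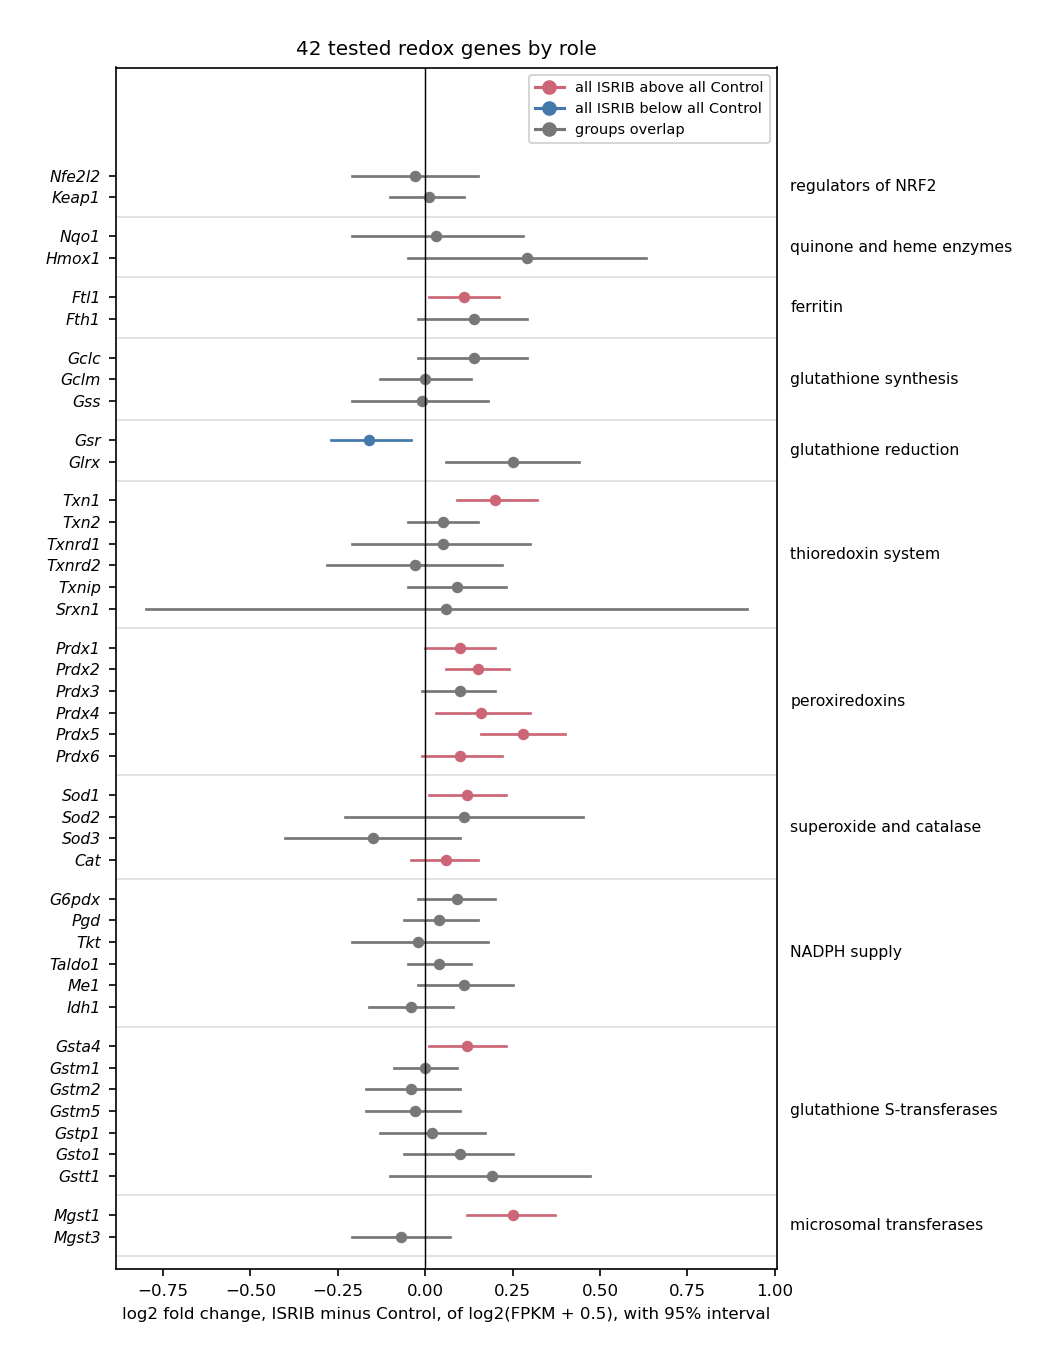
Log2 fold change of each of the 42 tested members, ISRIB minus Control, on the log2(FPKM + 0.5) scale (points), with its 95% interval from limma (lines), grouped by role and coloured by whether the groups of 3 libraries overlap. The 6 peroxiredoxins lie to the right of 0, Gsr lies to the left, and Srxn1 has an interval from −0.80 to 0.92.

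The regulators themselves were nearly level between the groups. Nfe2l2 (chromosome 2, 75675513 to 75704641, minus strand, GRCm38) measured 63.6, 64.2 and 60.2 FPKM in Control and 69.8, 56.7 and 58.5 FPKM in ISRIB. The highest and the lowest of the 6 libraries were both ISRIB libraries, and the log2 fold change was −0.03 (95% interval −0.21 to 0.15). Keap1 (chromosome 9, 21229730 to 21239361, minus strand) measured 19.6, 20.1 and 19.3 FPKM in Control and 19.6, 19.5 and 20.1 FPKM in ISRIB. Its groups overlapped throughout, its highest library was 1.04 times its lowest, and its log2 fold change was 0.01 (95% interval −0.10 to 0.11). Its direction turned after TPM rescaling (−0.05) and quantile normalization (−0.01).

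Among the classical targets is the heme oxygenase gene Hmox1, whose enzyme breaks heme down to biliverdin, iron and carbon monoxide. Hmox1 had the largest log2 fold change of the tested members. It measured 71.6, 90.6 and 70.6 FPKM in Control and 119, 80.9 and 87.5 FPKM in ISRIB. Control replicate 2 lay above both of the lower ISRIB libraries, and the log2 fold change of 0.29 (SE 0.148, limma adjusted p = 0.371) did not exceed the spread between libraries. It was 0.13 without ISRIB replicate 1 and 0.41 without Control replicate 2. Nqo1 measured 2.8, 3.46 and 2.84 FPKM in Control and 2.76, 3.27 and 3.3 FPKM in ISRIB. The ISRIB values lay inside or just below the Control range, with a log2 fold change of 0.03 (95% interval −0.21 to 0.28, and −0.01 after TPM rescaling).

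Ferritin stores the iron that heme breakdown releases. The light chain Ftl1 (chromosome 7, 45457944 to 45459884, minus strand) measured 1209, 1195 and 1199 FPKM in Control and 1355, 1264 and 1267 FPKM in ISRIB. All ISRIB libraries were above Control, by a log2 fold change of 0.11 (SE 0.0447, limma adjusted p = 0.288). The sign of that difference turned after quantile normalization (−0.02) and after the length correction (−0.01). The length used for Ftl1 in that correction is uncertain, because its reads can share a divisor. Ferritin chains also have many processed copies in the genome that can take or lend reads. The heavy chain Fth1, the ferroxidase subunit, measured 895, 960 and 928 FPKM in Control and 1123, 955 and 986 FPKM in ISRIB, with ISRIB replicate 2 inside the Control range and a log2 fold change of 0.14 (limma adjusted p = 0.348). That value was 0.07 without ISRIB replicate 1, 0.05 after the length correction and 0.02 after quantile normalization.

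Glutathione is made in 2 steps, by glutamate-cysteine ligase and then glutathione synthetase. Gclc, the catalytic subunit of the ligase, measured 11.3, 12.4 and 11.5 FPKM in Control and 13.3, 12 and 13.6 FPKM in ISRIB. Control replicate 2 lay above ISRIB replicate 2, and the log2 fold change was 0.14 (SE 0.0666, limma adjusted p = 0.351). The modifier subunit Gclm measured 38.2, 39.4 and 39.1 FPKM in Control and 41.3, 39.8 and 35.9 FPKM in ISRIB. The ISRIB libraries enclosed the Control range, and the log2 fold change was 0.00 (95% interval −0.13 to 0.13). Gss, the synthetase, had means of 12.1 ± 1.14 and 12 ± 0.965 FPKM (SD, n = 3 each) and a log2 fold change of −0.01. It shares exon sequence with genes on the opposite strand, among them Acss2, and no source used here states the strand setting of the counting.

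The enzymes that return glutathione and glutathionylated proteins to their reduced state stood on opposite sides of 0. Gsr, glutathione reductase (chromosome 8, 33652523 to 33698163, plus strand), measured 23.3, 23.3 and 24.2 FPKM in Control and 21.9, 21.2 and 20.3 FPKM in ISRIB. It was the member with all ISRIB libraries below all Control libraries. Its log2 fold change was −0.16 (SE 0.0483, limma adjusted p = 0.187), and −0.17 after the length correction. Glutaredoxin, Glrx (chromosome 13, 75839868 to 75850154, plus strand), measured 19.6, 21.7 and 20.8 FPKM in Control and 21.6, 25.8 and 26.7 FPKM in ISRIB. ISRIB replicate 1 was within the Control range and the others above it, with a log2 fold change of 0.25 (SE 0.0831, limma adjusted p = 0.214).

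In the thioredoxin system the transcripts of the cytosolic and the mitochondrial protein were read separately. Cytosolic thioredoxin, Txn1 (chromosome 4, 57943373 to 57956411, minus strand), measured 85.5, 82.6 and 88.7 FPKM in Control and 105, 95 and 96.3 FPKM in ISRIB. The groups did not overlap, and the log2 fold change was 0.20 (SE 0.0509, limma adjusted p = 0.127), or 0.13 after the length correction. Mitochondrial Txn2 had 77.2 ± 2.31 and 80.1 ± 2.2 FPKM (SD, n = 3 each), and its log2 fold change of 0.05 was −0.00 after TPM rescaling and −0.01 after the length correction. The difference between the fold changes of Txn1 and Txn2 was not tested.

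The reductases of thioredoxin followed single libraries. Txnrd1, the cytosolic reductase and an NRF2 target, measured 34, 36.5 and 31.8 FPKM in Control and 42.5, 32.7 and 31.4 FPKM in ISRIB. ISRIB replicate 1 was the highest of all 6 and ISRIB replicate 3 the lowest, and the log2 fold change of 0.05 became −0.09 without ISRIB replicate 1. Mitochondrial Txnrd2 had 7 ± 0.663 and 6.88 ± 0.931 FPKM (SD, n = 3 each) and a log2 fold change of −0.03. Txnip, the arrestin-like inhibitor of thioredoxin whose transcription follows glucose, measured 157, 141 and 153 FPKM in Control and 151, 160 and 171 FPKM in ISRIB. Its groups overlapped in the middle, with a log2 fold change of 0.09 (SE 0.0598, limma adjusted p = 0.488).

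Sulfiredoxin, Srxn1 (chromosome 2, 152105516 to 152111376, plus strand), repairs peroxiredoxins that peroxide has over-oxidized. It measured 10.9, 15.9 and 9.22 FPKM in Control and 23.5, 10 and 7.66 FPKM in ISRIB. Its highest library was 3.06 times its lowest, and both extremes were ISRIB libraries. The log2 fold change was 0.06 (SE 0.371), −0.40 without ISRIB replicate 1 and −0.19 without both that library and Control replicate 2.

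Peroxiredoxins are the thiol peroxidases that thioredoxin and, for Prdx6, glutathione reduce. All 6 members were higher in ISRIB (51.8% of all genes), and in 5 of them every ISRIB library exceeded every Control library (10.8% of all genes). None passed over all genes, and the median log2 fold change was 0.13 (0.09 after the length correction, 0.07 after TPM rescaling). All 6 had a positive fold change under each of 18 alternative settings, which refit the same libraries and are not independent. The lowest was 0.01 after quantile normalization and 0.04 after TPM rescaling and after the length correction. The number without overlap was 3 after TPM rescaling or quantile normalization and 4 after the length correction (26.5%, 22.4% and 19.8% of all genes, in either direction).

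Prdx5, found in mitochondria, peroxisomes and cytosol (chromosome 19, 6906697 to 6910106, minus strand), measured 57.3, 56.1 and 61.7 FPKM in Control and 71.8, 67.7 and 73.6 FPKM in ISRIB. The lowest ISRIB library exceeded the highest Control library. It had the smallest p of all members, with a log2 fold change of 0.28 (SE 0.0523, limma adjusted p = 0.0987, voom adjusted p = 0.0623). Its log2 fold change was 0.21 after the length correction. Its exons overlap those of Trmt112 on the opposite strand, which had 41.8 ± 1.38 FPKM in Control and 44.5 ± 3.17 FPKM in ISRIB (SD, n = 3 each).

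Cytosolic Prdx2 (chromosome 8, 84969587 to 84974834, plus strand) is abundant in red cells. It measured 130, 126 and 134 FPKM in Control and 142, 144 and 147 FPKM in ISRIB, without overlap, a log2 fold change of 0.15 (SE 0.0396, limma adjusted p = 0.136). All 4 red cell markers tested were higher in ISRIB (51.8% of all genes), 2 of them without overlap (10.8% of all genes). The other 6 of the 10 listed had a mean under 1 FPKM. The globin gene Hbb-bs, without overlap, had 10.2 to 16.4 FPKM in Control and 128, 19.7 and 25.9 FPKM in ISRIB. Another globin gene, Hba-a1, had overlapping groups, at 50.1, 27.9 and 56.2 FPKM in Control and 184, 54.6 and 43.5 FPKM in ISRIB. Summed red cell markers were 41.6 to 76 FPKM in Control and 330, 77.4 and 74.1 FPKM in ISRIB. Prdx2 also overlaps Junb on the opposite strand, an immediate early gene that ran from 21.2 to 96.3 FPKM. The part of red cell RNA and of reads from Junb in the Prdx2 values was not tested.

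Prdx1, the major cytosolic form and an NRF2 target, measured 294, 303 and 300 FPKM in Control and 332, 325 and 306 FPKM in ISRIB. The groups did not overlap, though the log2 fold change of 0.10 (limma adjusted p = 0.299) was 0.04 after the length correction and 0.01 after quantile normalization. Prdx4, the form of the endoplasmic reticulum, measured 17.7, 19.7 and 20.5 FPKM in Control and 21.4, 21.8 and 21.7 FPKM in ISRIB. Its ISRIB libraries had an SD of 0.218 FPKM and were all above Control, and the log2 fold change was 0.16 (SE 0.0595, limma adjusted p = 0.238).

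The mitochondrial Prdx3 measured 64.4, 65.5 and 62.9 FPKM in Control and 65, 70.8 and 70.3 FPKM in ISRIB. ISRIB replicate 1 lay within the Control range, and the log2 fold change was 0.10 (limma adjusted p = 0.348). Prdx6, which uses glutathione, measured 28.8, 31 and 31.8 FPKM in Control and 32.6, 32.3 and 33.6 FPKM in ISRIB. The groups did not overlap, by a narrow margin, with a log2 fold change of 0.10 (limma adjusted p = 0.347).

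**Figure D2:**
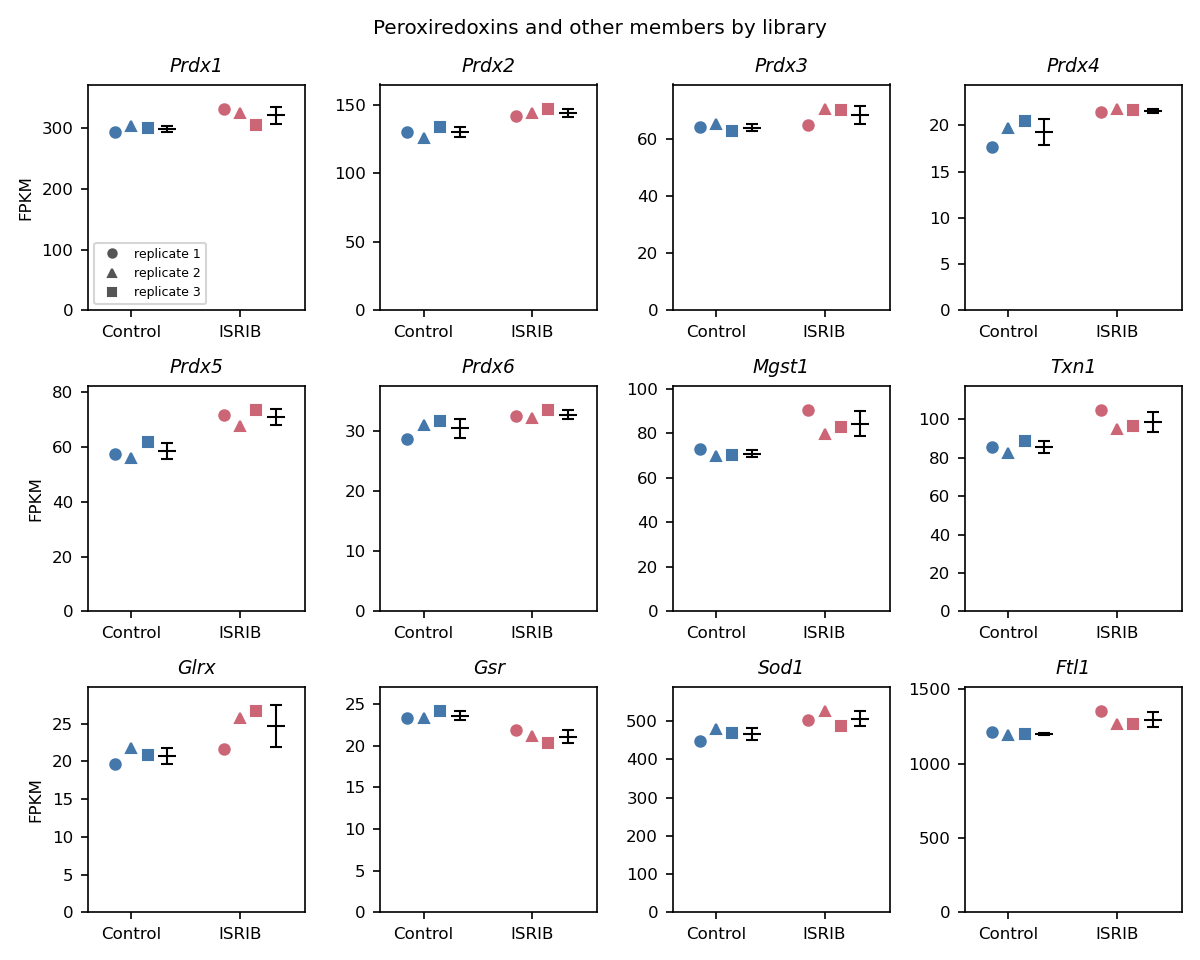
FPKM of 12 members in each library (circle, triangle and square for replicates 1, 2 and 3), with the mean and SD of each group of 3 in black; each panel starts at 0 and has its own scale. The ISRIB libraries of Prdx5 sit at 67.7 to 73.6 FPKM above 56.1 to 61.7 FPKM in Control, and those of Gsr sit at 20.3 to 21.9 FPKM below 23.3 to 24.2 FPKM.

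Superoxide dismutases turn superoxide into hydrogen peroxide, and catalase breaks hydrogen peroxide down. The copper-zinc enzyme Sod1 measured 449, 480 and 468 FPKM in Control and 503, 527 and 488 FPKM in ISRIB. The ISRIB libraries were all higher, with a log2 fold change of 0.12 (SE 0.0464, limma adjusted p = 0.259), which was −0.03 after quantile normalization. The mitochondrial Sod2, also induced by cytokines, ran from 12.8 to 20.1 FPKM with both extremes in ISRIB, and its log2 fold change of 0.11 became −0.07 without ISRIB replicate 1. The extracellular Sod3 had 11.8 ± 0.89 and 10.7 ± 1.57 FPKM (SD, n = 3 each) with a log2 fold change of −0.15 (limma adjusted p = 0.524, and −0.03 without ISRIB replicate 1). Catalase, Cat, was at 42.3 ± 0.189 and 44 ± 1.31 FPKM with the ISRIB libraries just above Control, a log2 fold change of 0.06 (limma adjusted p = 0.528).

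Enzymes of NADPH supply and of the pentose phosphate pathway had log2 fold changes from −0.04 to 0.11. G6pdx, the glucose-6-phosphate dehydrogenase that commits glucose to the pathway (chromosome X, 74409483 to 74429194, minus strand), measured 69.4, 75.1 and 69.6 FPKM in Control and 73.9, 75 and 79 FPKM in ISRIB. Control replicate 2 was above 2 of the ISRIB libraries, and the log2 fold change was 0.09 (95% interval −0.02 to 0.20). The next oxidative enzyme, Pgd, had a log2 fold change of 0.04 (95% interval −0.06 to 0.15). The non-oxidative enzymes Tkt and Taldo1 had −0.02 (95% interval −0.21 to 0.18) and 0.04 (95% interval −0.05 to 0.13). Malic enzyme, Me1, had 0.11 (limma adjusted p = 0.371) and cytosolic isocitrate dehydrogenase, Idh1, −0.04 (95% interval −0.16 to 0.08). None of these 6 had groups without overlap.

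Glutathione S-transferases attach glutathione to electrophiles. The mu class genes Gstm1, Gstm2 and Gstm5, which lie in a cluster on chromosome 3, had log2 fold changes of 0.00, −0.04 and −0.03, and their 95% intervals all lay between −0.17 and 0.10. The pi class gene Gstp1 had 0.02, with 63.1 ± 4.77 FPKM in Control and 63.9 ± 3.19 FPKM in ISRIB (SD, n = 3 each). Transferases of a class are near-identical in places, so reads may be split between them. Gsta4, which handles products of lipid peroxidation, measured 70, 73.6 and 72.2 FPKM in Control and 75.4, 76.2 and 82.5 FPKM in ISRIB. It was the transferase of this family with no overlap, at a log2 fold change of 0.12 (SE 0.0477, limma adjusted p = 0.288, and 0.03 after the length correction). Gsto1 had 0.10 with overlapping groups, and 0.03 without ISRIB replicate 1. Gstt1 had 0.19, also with overlap, and ran from 0.06 without Control replicate 1 to 0.33 without Control replicate 3.

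The microsomal transferases are bound to membranes. Mgst1 (chromosome 6, 138140316 to 138156755, plus strand) measured 72.7, 69.6 and 70.1 FPKM in Control and 90.5, 79.6 and 82.8 FPKM in ISRIB. All ISRIB libraries were higher, and it had the second smallest p of the members, with a log2 fold change of 0.25 (SE 0.0537, limma adjusted p = 0.111, voom adjusted p = 0.072) and 0.19 after the length correction. Mgst3 had 38.3 ± 2.73 FPKM in Control and 36.4 ± 1.3 FPKM in ISRIB (SD, n = 3 each) with a log2 fold change of −0.07 (95% interval −0.21 to 0.07). The difference between the fold changes of Mgst1 and Mgst3 was not tested. Mgst2 was at 0.208 ± 0.046 FPKM in Control and 0.161 ± 0.103 FPKM in ISRIB, and as few as 4 reads stood behind a value.

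Gene length separated members as it did all genes. Of the 21 shorter members (485 to 1576 bases) 18 were higher in ISRIB with a median log2 fold change of 0.11, and of the 21 longer ones (1905 to 4470 bases) 14 were, with a median of 0.04. Prdx5, Mgst1, Glrx and Txn1 lay above the median of genes of like length, while Sod1 and Ftl1 lay near it. Lengths were implied by the FPKM, and that of Ftl1 is uncertain because its reads can share a divisor.

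**Figure D3:**
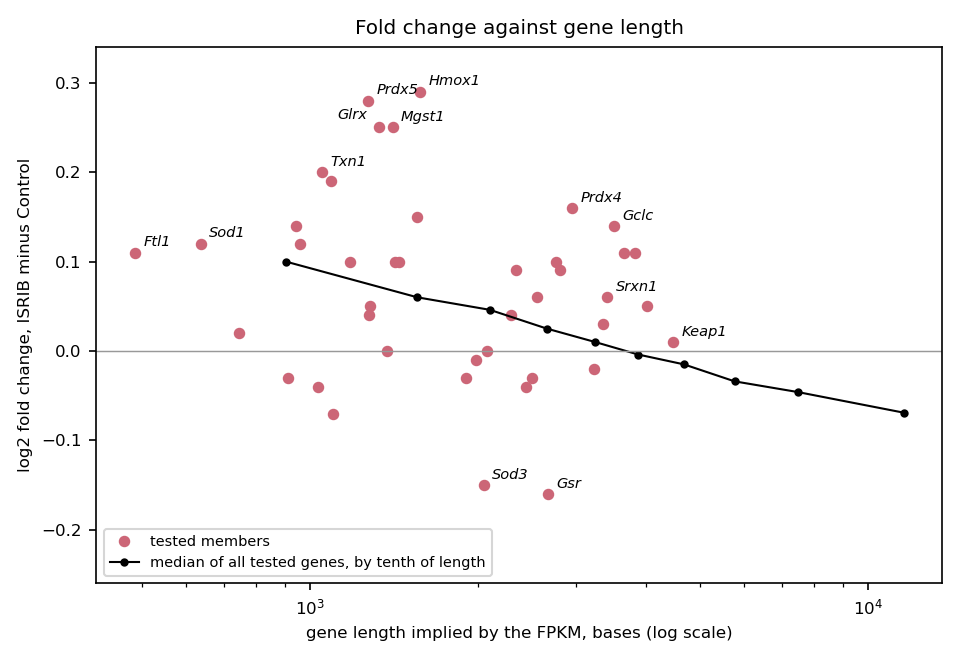
Log2 fold change of the 42 tested members (ISRIB minus Control) against the gene length implied by the FPKM, in bases on a log axis, with the median of all tested genes in each of 10 length bins as a black line. The line goes from 0.10 to −0.069, and Prdx5 (0.28), Mgst1 (0.25) and Gsr (−0.16) lie away from it.

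A second pattern, across single libraries rather than between the groups, was defined after the values were seen. For 11 of the 42 members (26.2%) the highest Control library was replicate 2 and the highest ISRIB library was replicate 1, against 13.5% of all genes tested. These were Nfe2l2, Hmox1, Fth1, Gclm, Txnrd1, Srxn1, Prdx1, Sod2, Tkt, Gstm2 and Gsto1. The count goes by rank, whatever the size of the difference. Control replicates 2 and 3 had 39.4 and 39.1 FPKM for Gclm and 297 and 295 FPKM for Gstm2. The same libraries were highest for immediate early genes. Junb measured 22.9, 57.8 and 27.8 FPKM in Control and 96.3, 30.7 and 21.2 FPKM in ISRIB, and Egr1 46.2, 127 and 45.5 FPKM in Control and 175, 55.3 and 49.2 FPKM in ISRIB. The part of early response genes and of red cell RNA in the values of these members was not tested. The members with a highest library at least 1.5 times the lowest among those tested were Srxn1, Hmox1 and Sod2, and each was highest in ISRIB replicate 1.

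Prdx5, Mgst1, Txn1, Prdx2 and Gsr, the members with the smallest p, did not follow that pattern in Control. In ISRIB, Mgst1, Txn1 and Gsr were highest in replicate 1, and Prdx5 and Prdx2 in replicate 3. Without ISRIB replicate 1 the log2 fold change was 0.20 for Mgst1, 0.16 for Txn1 and −0.18 for Gsr. It was 0.27 for Prdx5 and 0.16 for Prdx2. Without Control replicate 2 and ISRIB replicate 1 together, an alternative chosen after seeing the data, the median of the members was 0.07, and again 0 members passed (smallest limma adjusted p = 0.179).

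**Figure D4:**
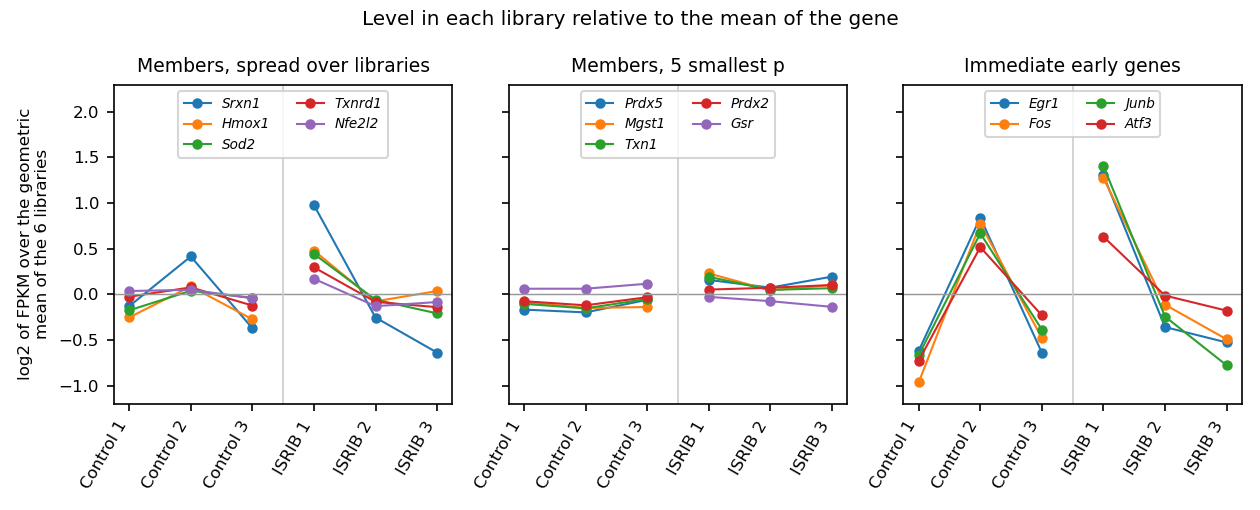
Log2 of the FPKM over the geometric mean of the 6 libraries, for 5 members that vary between single libraries (left), the 5 members with the smallest p (middle) and 4 immediate early genes (right); lines join libraries of a group only to guide the eye. Srxn1, at 23.5 FPKM in ISRIB replicate 1 and 7.66 FPKM in ISRIB replicate 3, has the same high libraries as the early genes.

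Other genes of these pathways were not called either. Of 141 further regulators, targets, glutathione, thioredoxin and NADPH genes and oxidant sources, 110 were tested and limma called 0. At an unadjusted p under 0.05, 8 were higher and 6 lower (8.71% and 7.73% of all genes). Their median log2 fold change was 0.01, as over all genes tested. Voom called 1 of them (0.859% of all genes), Xdh, xanthine dehydrogenase, whose oxidase form releases superoxide. Xdh had 1.54 FPKM in ISRIB against 3.11 FPKM in Control (limma adjusted p = 0.0608, voom adjusted p = 0.0168). Of 13 tested partners and repressors of NRF2, 2 lay above and 4 below without overlap (10.8% and 12% of all genes). The ubiquitin ligase subunit gene Rbx1 had a log2 fold change of 0.11 and Fbxw11, an F-box protein gene, −0.12 (limma adjusted p = 0.273 and 0.263). The small MAF gene Maff had 0.39, but 0.17 without ISRIB replicate 1, its highest library.

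Of 23 further NRF2 targets tested, 12 were higher and 11 lower. Pir, pirin, had a log2 fold change of 0.35 (limma adjusted p = 0.242). Slc7a11, the cystine importer that feeds glutathione synthesis, had 3.55 ± 0.42 and 3.23 ± 0.814 FPKM (SD, n = 3 each) with a log2 fold change of −0.14 (95% interval −0.52 to 0.24). Among 13 tested glutathione genes, Chac1, which degrades glutathione, had −0.43 and Anpep −0.36 (limma adjusted p = 0.119 and 0.168), and the glutaredoxin gene Glrx3 had 0.14 (limma adjusted p = 0.174). None of 14 further glutathione S-transferases had an unadjusted p under 0.05 (16.4% of all genes).

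Among 22 thioredoxin-fold and repair genes 4 lay above and 3 below without overlap (10.8% and 12% of all genes). The thioredoxin-related genes Txndc17 and Txnl1 had log2 fold changes of 0.18 and 0.16 (limma adjusted p = 0.136 and 0.184), and Sesn3, a sestrin gene, had −0.21 (limma adjusted p = 0.119). Among 18 further genes listed for NADPH supply, 2 were higher and 1 lower at an unadjusted p under 0.05 (8.71% and 7.73% of all genes). Sbds, known for its role in ribosome maturation, had 0.24 with all ISRIB libraries above Control (limma adjusted p = 0.163). The mitochondrial folate enzyme gene Mthfd1l had 0.25 and malic enzyme Me2 −0.25 (limma adjusted p = 0.203 and 0.220).

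Markers of the cells of the ovary were read in the same libraries. Summed endothelial markers were 164 to 179 FPKM in Control and 138 to 156 FPKM in ISRIB. All 8 genes were lower in ISRIB (51.8% of all genes were higher), 5 without overlap (12% of all genes). Kdr had −0.22, Cdh5 −0.27 and Eng −0.20 (limma adjusted p = 0.109, 0.119 and 0.121). Macrophage and leukocyte markers summed to 92 to 101 FPKM and 94.6 to 98 FPKM, with 3 of 9 tested genes below (12% of all genes). Of these 9, 6 were lower and 3 higher, and Csf1r had −0.36 (limma adjusted p = 0.101). Oocyte markers summed to 1357 to 1540 FPKM and 1486 to 1630 FPKM, and granulosa markers to 575 to 679 FPKM and 622 to 754 FPKM. At an unadjusted p under 0.05 there were 4 of 12 oocyte markers and 2 of 9 granulosa markers (16.4% of all genes). Of the oocyte markers, the receptor gene Kit had −0.26 without overlap, and Oosp1 had 0.42 and Zp3, which encodes an egg coat protein, 0.20, likewise without overlap (limma adjusted p = 0.145, 0.199 and 0.215). Of the granulosa markers, the inhibin gene Inha had 0.45 with overlap and the KIT ligand gene Kitl −0.32 without (limma adjusted p = 0.236 and 0.245). No marker on these lists was at 0 in every library, and the red cell genes Alas2 and Slc4a1 were under 1 FPKM on average. The part of these cells in the values of the members was not tested.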

How the data were processed

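The authors deposited FPKM values for 26329 genes in 6 libraries, 1 column a library. Per the submitters' processing notes, build mm10 and the tools DESeq2, HTSeq, HISAT2, fastp and R 3.2.0 were used, with no roles named; annotation and strand setting were not stated. Members, lists and tests were chosen with earlier results of these data known.

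The 12922 genes whose mean reached 1 FPKM were fitted on the log2(FPKM + 0.5) scale with limma 3.58.1 in R 4.3.3 (2 groups, empirical Bayes with an intensity trend, Benjamini-Hochberg adjustment over all tested genes, threshold 0.05); this scale understates fold changes of low genes. Whole reads were worked back from the FPKM (100% of genes, tolerance 0.01 read). The library sizes are those that make implied gene lengths whole, and reads that share a divisor stay too low (99.49% to 99.51% recovered). Replicates differed beyond sampling noise (chi-square per gene 7.45 to 17.64). The read recovery and the fits were tested on simulated data. Positions are from GENCODE M21 (GRCm38), promoters from RefSeq. Per-library values are given for 11 chosen members and the 14 tested members with the smallest p. From the other lists, up to 3 genes with the smallest p are named; Slc7a11, Junb, Egr1, Ddx4, Foxl2 and Trmt112 were chosen after their values were seen. Python 3.11.15, pandas 2.3.3 and matplotlib 3.10.9 made tables and figures. Alternatives were other pseudocounts, filters, scalings and trends, voom with TMM sizes, a length correction, the replicate number as a block and leaving out each library. Leaving out Control replicate 2 and ISRIB replicate 1 together was added after seeing the data.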

Additional observations from a re-analysis of the deposited data

How the results depend on the processing

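No member was called under any of the 18 alternative settings. Over all genes limma called 8 with a mean FPKM of at least 5 and 11 with the replicate number as a block, and voom called 111, of which 1 was among the other pathway genes; the reported fit and the remaining settings called 0 (2125 at an unadjusted p under 0.05). Deviations from the group means had r = −0.19, −0.0909 and 0.192 between same-numbered libraries. The best match of ISRIB replicate 1 was Control replicate 2 (r = 0.355). With 3 libraries in a group, these values cannot decide whether the numbers pair the libraries. The median of the members was 0.02 after TPM rescaling and after quantile normalization and 0.03 after the length correction, and 0.06 to 0.10 when single libraries were left out. Members without overlap numbered 6 after TPM rescaling and 7 after quantile normalization (26.5% and 22.4% of all genes). They numbered 14 to 19 when single libraries were left out (30.3% to 37.8% of all genes) and 23 with 2 left out (46.7% of all genes), since fewer libraries overlap less often. TPM rescaling set the median of all genes to −0.05.

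In all, 23 of 42 members had the same sign under every setting. After TPM rescaling Keap1, Gclm and Gstm1 had −0.05, Gstp1 −0.03, Nqo1, Txnrd1, Pgd and Taldo1 −0.01 and Txn2 −0.00. After median-of-ratios scaling Gclm and Gstm1 had −0.00. After quantile normalization Gstm1 had −0.07, Sod1 −0.03, Ftl1 and Gclm −0.02 and Keap1 and Gstp1 −0.01. After the length correction Gstp1 had −0.07, Gstm1 −0.06, Gclm and Taldo1 −0.03 and Ftl1 and Txn2 −0.01. Without Control replicate 2 and ISRIB replicate 1 together, Srxn1 had −0.19, Txnrd1 −0.04, Gclm and Sod2 −0.03, Txnrd2 0.05, and Tkt and Gstm5 0.01. With libraries left out (the 2 together included), the log2 fold change ran from −0.12 to 0.03 for Nfe2l2, −0.01 to 0.03 for Keap1, −0.01 to 0.19 for Nqo1, −0.04 to 0.06 for Gclm, −0.10 to 0.06 for Gss, −0.09 to 0.13 for Txnrd1, −0.10 to 0.08 for Txnrd2, −0.40 to 0.38 for Srxn1, −0.07 to 0.24 for Sod2, −0.09 to 0.07 for Tkt, −0.07 to 0.00 for Idh1, −0.02 to 0.02 for Gstm1, −0.10 to 0.01 for Gstm5 and −0.04 to 0.07 for Gstp1. The causes were not tested.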

Other observations

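Ratios of paired genes, formed per library from FPKM, gave the balance of subunits and compartments. Gclc stood at 0.302 ± 0.0113 of Gclm in Control and 0.333 ± 0.04 in ISRIB (SD, n = 3 each), so that the modifier transcript exceeded the catalytic transcript in every library (range 0.294 to 0.378). Txn1 over Txn2 was 1.11 ± 0.0656 in Control and 1.23 ± 0.101 in ISRIB. Txnrd1 over Txnrd2 was 4.9 ± 0.53 and 5.32 ± 1.72, with a range of 4.32 to 7.31. The light over heavy ferritin chain, Ftl1 over Fth1, was 1.3 ± 0.0529 and 1.27 ± 0.0602. None of these ratios was tested.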
